A study of Mus musculus with 4 samples.

Results

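The effect of exercise in lungs that carried a tumor was read as the difference between 2 libraries, lung of the cancer exercise group, E(+)T(+), minus lung of the cancer control group, E(-)T(+), where E stands for exercise and T for tumor. Members were all rows with a mean normalized read count of at least 100 over the 4 lung libraries of the study, and 9396 of 23282 rows (40.4%) were at this filter. The 2 other libraries came from mice without tumor, E(-)T(-) at rest and E(+)T(-) with exercise, and they serve here for the filter and as reference levels. All 4 groups were male CDF1 mice, 10 per group. The labels give postnatal day 28, which is the age at which the mice were bought, and tissue was taken at the end of the experiment that followed. The tumor groups received cells of CT26, a single murine colorectal carcinoma line, by tail vein, and the exercise groups ran on a motorized treadmill at high intensity. Each group gave 1 lung library, and the study describes a single representative mouse of each group for its muscle libraries and a similar approach for lung, without stating it for lung. No difference below therefore has a replicate check, no test of the conditions is possible, and the intervals given are counting intervals of these libraries. A sample with fewer cells of a type cannot be told apart from one with less RNA per cell, since whole tissue was measured.

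As background, cells injected into the tail vein reach the capillaries of the lung first and can grow there as nodules. The lung is otherwise a thin sheet of alveolar type 1 cells for gas exchange and type 2 cells that secrete surfactant, laid over a dense capillary bed, with airways lined by secretory and ciliated cells. Alveolar macrophages live on its surface, while neutrophils, platelets and red cells arrive in its blood. Growing tumor tissue adds dividing cells, new matrix and macrophages of other kinds.

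Recovered as whole reads from the deposited log2 values, the exercised tumor library E(+)T(+) comprised 13368042 reads and the resting one, E(-)T(+), 9354567, while the tumor-free libraries comprised 12780395 with exercise and 13017356 at rest. The smallest level these depths can show, 3 reads of the total, was 0.224 to 0.321 CPM, the reads of a gene scaled to a common library total. Globin rows took a share of 31.43% (95% Wilson interval 31.41 to 31.46) of the exercised and 1.43% (1.42 to 1.44) of the resting tumor library. When libraries were scaled by totals alone each log2 difference was lower by about 0.61, and the median difference moved by -0.085 when totals left out the hemoglobin genes. Under totals alone a difference between 0 and 0.61 would change sign. Lung identity held in both tumor libraries, since Sftpc, the surfactant protein C gene of type 2 cells, had 12347 normalized counts in E(-)T(+) and 81470 in E(+)T(+). The Y-linked genes of these male mice were also unequal. Ddx3y rested on 298 reads at rest and 1185 with exercise, and all 4 Y-linked genes examined, Ddx3y, Uty, Eif2s3y and Kdm5d, were higher in E(+)T(+), by 1.54 to 2.08 (log2). These genes were chosen after their values were seen. The library labelled E(+)T(-) held some reads of genes that were abundant in E(-)T(+) and at 0 in E(-)T(-). Crabp1, for example, was counted 10478 times in the resting tumor library, 141 times in E(+)T(-) and 0 times in the resting tumor-free library, so low levels in the E(+)T(-) library are read with this in mind.

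Exercise in tumor-bearing mice went with differences across a large share of the transcriptome. Of the 9396 rows, 3171 (33.7%) were past a limit of 2-fold, of which 1829 (19.5% of all rows) were higher with exercise and 1342 (14.3%) lower. At 8-fold, 251 rows (2.67%) were past the limit, 190 higher (2.02%) and 61 lower (0.649%). Scaled by library totals alone, 1157 rows would be higher and 3321 lower, so that the share of higher rows among those past the limit was 57.7% with the deposited scaling and 25.8% with totals. The counting interval of each of the 3171 rows excluded 0 under the deposited scaling. The median log2 difference was -0.07 and the median size was 0.66, against 0.21 between the tumor-free libraries at the same rows, where 200 rows (2.13%) passed 2-fold, 158 higher (1.68%) and 42 lower (0.447%). Rows on either side of the filter were Cdk20 (mean 99.99 and log2 difference -1.58) and Usp11 (mean 99.99 and -0.63) just outside, and Lysmd1 (mean 100.1 and 0.82) and Sec22c (mean 100.1 and -1.64) just inside.

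**Figure D1:**
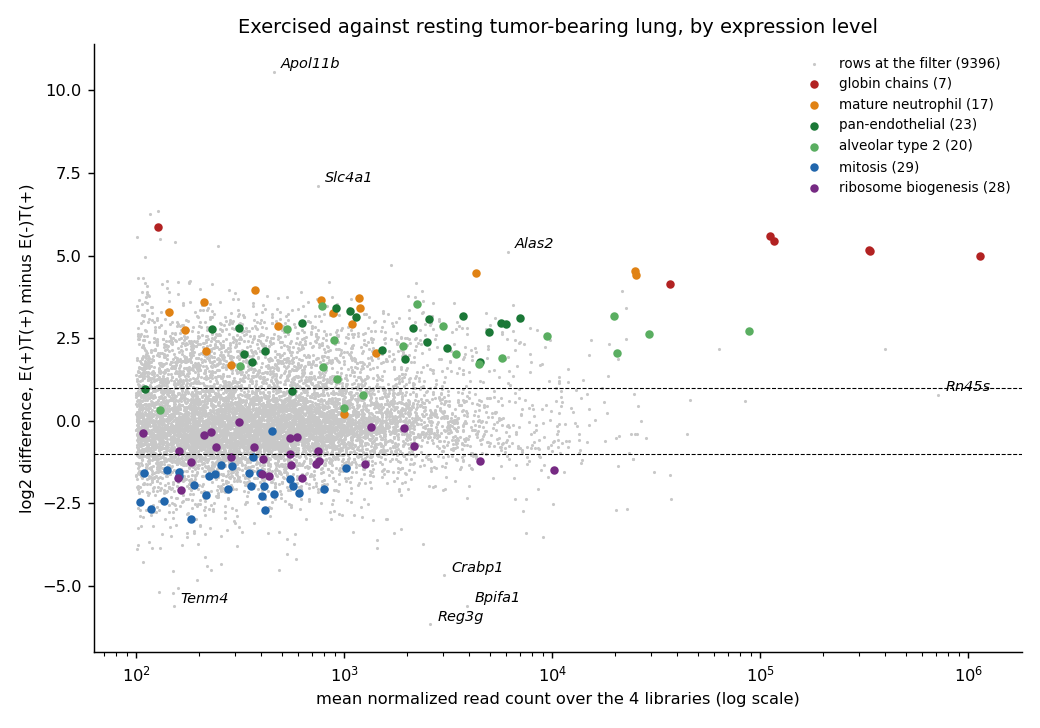
Log2 difference of the deposited values, E(+)T(+) minus E(-)T(+) (vertical axis), against the mean normalized read count over the 4 libraries (horizontal axis, log scale) for the 9396 rows; colored points are members of 6 gene lists and dashed lines mark 2-fold. Globin chains lie highest at the right, endothelial, type 2 and neutrophil genes lie above the upper line for the most part, and mitosis genes lie below the lower line except Mki67.

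The level in E(+)T(+) can also be placed against the levels without tumor. Over all 9396 rows it was above both tumor-free libraries in 42.4% and below both in 43%, and the E(-)T(+) level was above both in 47.2% and below both in 43.7%. Among the 1829 rows that were higher, 1628 (89%) had an E(-)T(+) level below both tumor-free libraries, and the E(+)T(+) level was above both in 833 (45.5%), between them in 202 and below both in 794 (43.4%). Among the 1342 rows that were lower, 1245 (92.8%) had an E(-)T(+) level above both tumor-free libraries, and the E(+)T(+) level was above both in 562 (41.9%) and below both in 606 (45.2%). The E(+)T(+) shares of both sets were near those of all rows. The E(-)T(+) shares are given as a description, since that library entered the difference that chose these rows, and over all rows it was already the highest of the 4 in 3698 and the lowest in 3320.

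The 12 rows with the largest positive differences included genes of the red cell and of the alveolar macrophage. Where values are given in pairs here and below, the first is E(-)T(+), called at rest, and the second E(+)T(+), called with exercise; values that follow as beside, or as without tumor, are E(-)T(-) and then E(+)T(-). Apol11b, a member of the apolipoprotein L family on chromosome 15 (chr15:77633951-77643286), went from 0 reads at rest to 1384 with exercise, at least 492-fold higher against a floor of 3 reads per library, with 125 and 126 reads in the resting and exercised tumor-free libraries. Its close relatives make the assignment of its reads uncertain. Slc4a1 (chr11:102348820-102365281), the anion exchanger band 3 of the red cell membrane, went from 17 to 2326 reads (log2 difference 7.11, 95% exact counting interval 6.51 to 7.97). The uncharacterized row 6330403K07Rik had 0 and 68 reads, at least 24.2-fold higher, and Fam162b had 1 and 87 reads (interval 4.02 to 11.86). Fabp1, a fatty acid binding protein listed with alveolar macrophage genes, had 0 and 38 reads, at least 13.5-fold higher, while the tumor-free libraries held 257 and 380. Globin rows in this set were Hbq1b (5.86), Hbb-b2 (5.59), Hbb-bt (5.44) and Hbb-b1 (5.16). Slc4a1 and these globin rows stood above both tumor-free libraries in E(+)T(+), whereas 6330403K07Rik, Fam162b and Fabp1 stood below both.

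The 12 rows with the largest negative differences were mixed in kind, and all stood above both tumor-free libraries in E(-)T(+). This position is given as a description, since E(-)T(+) entered the difference that ranked these rows. Only Reg3g, Bpifa1 and Ccdc38 averaged at least the filter level over the tumor-free libraries. The other rows of this set reached the filter through the tumor libraries, which favors rows with a high E(-)T(+) level. Reg3g (chr6:78466269-78468874), an antibacterial lectin secreted by epithelium, had 9607 normalized counts in E(-)T(+) and 132 in E(+)T(+), beside 291 and 320 without tumor (log2 difference -6.17, interval -6.47 to -5.92). Bpifa1 (chr2:154142880-154149217), an airway secretory protein, had 13738 and 280, beside 774 and 805 (-5.61). For both genes the exercised tumor lung thus lay under the tumor-free level. Crabp1, which binds retinoic acid in the cytosol, had 11480 and 447 normalized counts (-4.68). Osr2, an odd-skipped related transcription factor, had 1833 and 78.5 (-4.53), and the neurofilament gene Nefm had 566 and 14.2 (-5.22). Chrna1, the alpha subunit of the muscle acetylcholine receptor, had 827 and 35.2 (-4.51), and Matn2, a matrix protein of the matrilin family, 747 and 34.0 (-4.42). Tenm4 (-5.62), Slc20a2 (-5.19), Sdhd (-5.07), Ccdc38 (-4.83) and Gp2 (-4.56) completed the set, with 9 to 19 reads each in E(+)T(+) and 387 to 524 in E(-)T(+). Sdhd, Slc20a2, Ccdc38 and Matn2 were also lower in E(+)T(+) than in both tumor-free libraries.

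**Figure D2:**
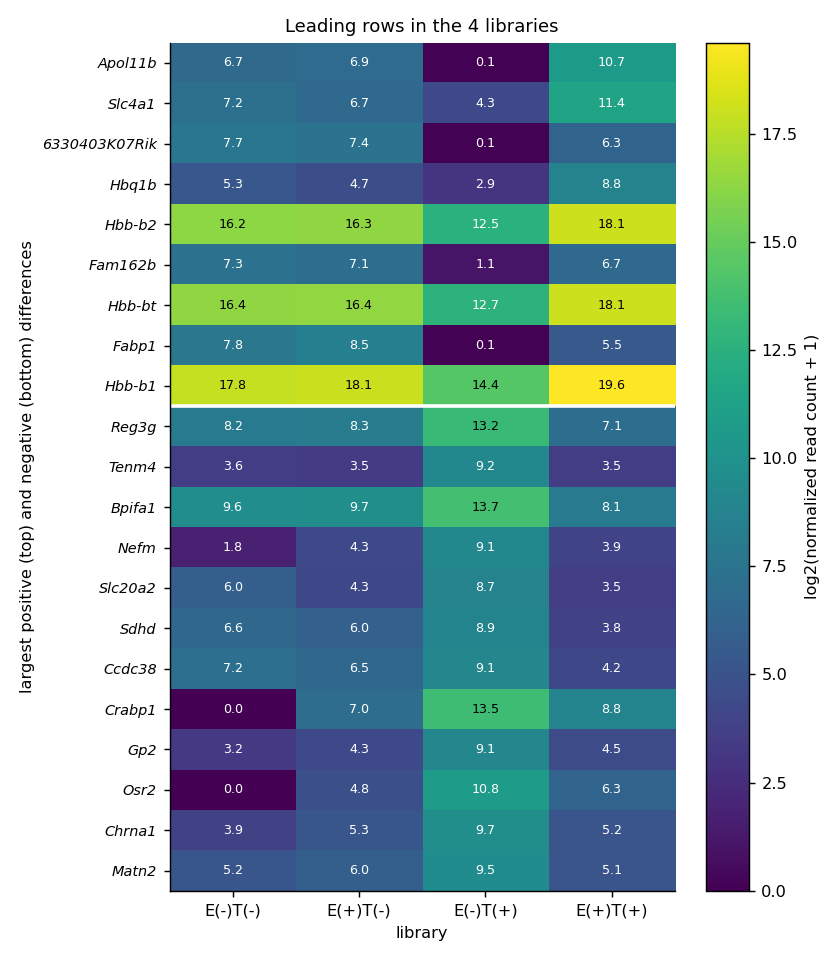
Level of 9 rows among those with the largest positive differences (top) and the 12 with the largest negative ones (bottom) in the 4 lung libraries; color and printed value are log2(normalized read count + 1). Apol11b, 6330403K07Rik and Fabp1 stand at about 0 in E(-)T(+) and nowhere else, and the rows of the lower part have their highest level in E(-)T(+).

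Genes were next grouped into 58 lists by cell type and pathway. The lists overlap, with 46 genes in more than 1 of them, so the counts of different lists are not always separate. In the text that follows, higher and lower mean E(+)T(+) relative to E(-)T(+), counts of members past the limit refer to 2-fold, and the shares over all rows are the 19.5% higher and 14.3% lower given above. Figures for a list are descriptions of these libraries.

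Globin chains, then genes of red cell membrane and maturation, had the largest medians of all lists at this filter. All 7 globin rows at the filter were higher, by a median of 5.16. Hba-a1, an alpha-globin gene, had 84460 normalized counts at rest and 2669243 with exercise, beside 909679 and 904022 without tumor, so that the tumor libraries lay on opposite sides of the tumor-free pair, which differed little. The division of reads among the near-identical globin copies is uncertain, but the summed level of the list showed the same order, with 14290 CPM in E(-)T(+), 143300 and 141700 without tumor and 314300 in E(+)T(+). Genes of red cell membrane and maturation had 6 of 8 members at the filter higher, with a median of 4.16. Over the 6 members that averaged at least 100 without tumor the median was 3.2. Bpgm, which makes the regulator of oxygen release by hemoglobin, had 170 normalized counts in E(-)T(+) and 4475 in E(+)T(+), beside 1084 and 1012 without tumor. The transferrin receptor Tfrc, which feeds iron to erythroid precursors, had 440 and 701 (0.67), inside the limit. A further 14 members were under the filter, and among these Trim10, Kel, Ermap and Epb4.2 had 0 reads at rest but 142, 70, 63 and 25 with exercise.

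Heme synthesis was split along the pathway, with 5 of 8 members higher and a median of 1.06, or 0.46 under library totals. Alas2, the erythroid form of the first enzyme, had 454 normalized counts in E(-)T(+) and 15825 in E(+)T(+), beside 4022 and 4201 without tumor (5.12, interval 4.98 to 5.27). The mitochondrial iron carrier Slc25a37 (3.0) and Fech, which inserts the iron (2.54), were higher, and Urod (1.09) and Alad (1.03) were just past the limit. Abcb10 (-0.01) and Cpox (-0.28) were inside it. Among erythroid transcription factors, 4 of 5 at the filter were higher (median 2.52). E2f2, a cell cycle regulator prominent in late erythroblasts, had 102 and 1380 normalized counts (3.75), and Zfpm1, the partner of GATA factors, 92.1 and 644 (2.79). E2f4 was lower, with 377 and 151 (-1.31). Gata1 and Klf1, the defining factors of the lineage, were under the filter, with 15 and 163 reads for Gata1 and 5 and 70 for Klf1. Most of these factors and all globin rows at the filter were thus higher. In E(+)T(+) 2 of the 5 factors, Lmo2 and E2f4, lay below both tumor-free libraries, while all 7 globin rows lay above both.

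The promoter of Alas2 is shown because this gene led heme synthesis and GATA factors bind the hexamers AGATAA and TGATAA. The 250 bases before the RefSeq start (GRCm38.p6, plus strand, chrX:150547167-150547416) are printed with matches to these hexamers on either strand in capitals.
Alas2: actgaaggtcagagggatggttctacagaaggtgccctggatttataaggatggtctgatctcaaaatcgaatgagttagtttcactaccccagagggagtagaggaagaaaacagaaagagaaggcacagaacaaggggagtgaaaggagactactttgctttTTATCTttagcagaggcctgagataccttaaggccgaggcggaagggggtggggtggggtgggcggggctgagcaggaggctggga
Of 15 promoters found for members of the 4 red cell lists at the filter, 6 (40%) held such a hexamer in this window. By list these were 3 of 5 for globin chains, 2 of 5 for heme synthesis, 1 of 3 for transcription factors and 0 of 2 for red cell membrane. The globin genes are close copies, so their promoters are not separate cases. The share was 8.59% of 7151 promoters of rows at the filter and 17% of 27025 promoters in the table. A match of letters is a description of the window and not a site.

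Platelet genes were higher in each of the 11 members at the filter, by a median of 2.74. Pf4, a chemokine stored in platelet granules, had 4665 normalized counts in E(-)T(+) and 13643 in E(+)T(+), beside 1040 and 1563 without tumor (1.55). Treml1, a receptor of activated platelets, had 250 and 3253, beside 233 and 583 (3.70, interval 3.51 to 3.90). Itga2b (3.19) and Itgb3 (3.22), the chains of the fibrinogen receptor, and Gp5 (3.17), Gp9 (2.74) and Gp1bb (2.39) of the von Willebrand factor receptor lay close together. In all 11 genes E(+)T(+) was the highest of the 4 libraries, against 1973 of all 9396 rows. Of the 11, Gp5 reached the filter through the tumor libraries, and the 10 other genes had a median of 2.69.

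Neutrophil genes were likewise higher. Of 17 mature neutrophil genes at the filter, 16 were higher and none lower, with a median of 3.28, and the 13 that averaged at least 100 without tumor had the same median. The other 4 reached the filter through the tumor libraries. S100a8 had 3909 normalized counts in E(-)T(+) and 90334 in E(+)T(+), beside 1366 and 4299 without tumor (4.53, interval 4.48 to 4.58), and its partner S100a9 in the antimicrobial protein calprotectin had 4184 and 88598 (4.40). Retnlg, a resistin-like protein of neutrophils, had 709 and 15803 (4.48). The smallest difference was that of Wfdc17 (0.21), and Csf3r, the receptor of granulocyte colony-stimulating factor, was under the filter with 32 and 82 reads. The summed level of the list was 1309 CPM in E(-)T(+), 676.6 and 1466 without tumor and 14010 in E(+)T(+), so that the exercised tumor lung stood apart from the other libraries.

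Most granule genes were higher as well. Of 10 secondary and tertiary granule genes, 8 were higher and 2 lower (median 2.48), and over the 6 that averaged at least 100 without tumor the median was 2.06. Ngp and Camp, below, are among those that reached the filter through the tumor libraries. Mmp8, neutrophil collagenase, had 448 and 8163 normalized counts (4.18), Ngp 167 and 3048 (4.18) and Camp, the cathelicidin, 64.7 and 758 (3.53). Ltf, lactoferrin, which shares the secondary granule with them, was lower, with 1709 and 648 (-1.40), as was Anxa1 with 4296 and 1202 (-1.84). Neither Ltf nor Anxa1 is confined to neutrophils. Of the primary granule genes, made early in the marrow, 6 of 8 were under the filter and had few reads, among them Elane with 1 and 51, Mpo with 11 and 124 and Prtn3 with 47 and 243. The 7 rows of the stefin A family, cysteine protease inhibitors that neutrophils express, were all higher (median 2.46), but none averaged 100 without tumor, so that each reached the filter through the tumor libraries. BC100530 had 481 and 3382 normalized counts (2.81), beside 7.54 and 21.1 without tumor, and the close similarity of these copies leaves the division of their reads uncertain.

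Lymphocyte genes were few at this filter. Of 24 T cell genes 4 reached it and 3 were higher, Cd3d with 37.3 and 264 normalized counts (2.79), Cd2 with 42.8 and 303 (2.79) and Lck with 15.4 and 97.1 (2.58). Cd8a had 3 and 34 reads and Cd4 had 12 and 25, both under the filter. The 9 T cell genes that averaged at least 100 without tumor had a median of 1.89, against 2.68 for those at the filter. Of 16 B cell genes 5 reached the filter, 4 higher and 1 lower (median 2.17). Over the 11 that averaged at least 100 without tumor the median was 3.76, some of them with few reads at rest. Cd79b, of the B cell receptor, had 12.1 and 77.2 normalized counts (2.58), beside 265 and 225 without tumor. The complement receptor Cr2 had 17 and 4 reads (-1.76, interval -4.02 to -0.38), beside 127 and 299 normalized counts without tumor. Under the filter, Cd79a and Bank1 had 0 reads at rest but 53 and 68 with exercise. The 4 plasma cell genes at the filter were higher (median 2.29, or 1.14 over the 3 that averaged at least 100 without tumor), led by the immunoglobulin joining chain Jchain with 51.6 and 812 normalized counts (3.95), above the 146 and 104 without tumor. B and T cell lists summed below both tumor-free libraries in E(+)T(+), at 61.8 against 203.7 and 173.6 CPM for B cells and 101.5 against 223.8 and 176.4 CPM for T cells, while the plasma cell list, at 183.4 CPM, summed above both (152.0 and 134.2).

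Cytotoxic genes lay in no common direction. Nkg7, of cytotoxic granule membranes, had 29 and 68 reads (1.29), Ccl5 differed by 0.97 and Gzma by -0.47. The killing genes Prf1 with 15 and 2 reads and Gzmb with 117 and 35 were under the filter and lower. The 3 rows of the granzyme C to G cluster at the filter were lower (-1.97 to -1.8), and none of them averaged 100 without tumor. Gzmf, the most abundant of them, had 1954 normalized counts at rest and 499 with exercise, beside 0 in the resting and 33.9 in the exercised tumor-free library, and reads of these close copies are uncertain. Of the checkpoint and regulatory T cell list 2 of 15 genes reached the filter. Tnfrsf9, the costimulatory receptor 4-1BB, had 396 and 57.4 normalized counts (-2.77), and Foxp3, the regulatory T cell factor, 173 and 116 (-0.58). Neither gene averaged 100 without tumor, so that both reached the filter through the tumor libraries. Pdcd1 and Lag3 had 6 and 2 reads at rest and none with exercise, too few to be read.

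Macrophage genes lay on both sides. In the alveolar macrophage list, 10 of 14 members were higher and 2 lower (median 2.23). Ear2, an eosinophil-associated ribonuclease that these cells express, had 87.7 and 837 normalized counts (3.24), beside 1440 and 1277 without tumor, and the integrin Itgax had 18.7 and 174 (3.15). The lower members were Marco, a scavenger receptor, with 702 and 331 (-1.08), and Fabp4, a fatty acid binding protein also found in adipocytes and endothelium, with 6255 and 471 (-3.73). Both Marco and Fabp4 had an E(-)T(+) level above the tumor-free libraries, whereas each of the 10 higher members lay below them there. Marco averaged under 100 without tumor and reached the filter through the tumor libraries. The 13 members that averaged at least 100 without tumor had a median of 2.32. Pparg, the factor that drives alveolar macrophage identity and adipocyte genes, was under the filter with 39 and 5 reads.

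The monocyte and tumor macrophage list was also divided, with 5 of 17 members higher and 7 lower (median -0.39, or -1.0 under library totals). Most of the higher members mark circulating monocytes. Ly6c2 had 263 and 2840 normalized counts (3.43, interval 3.24 to 3.63), Ccr2, the receptor that calls monocytes from the marrow, 205 and 866 (2.07), and Fcgr4 213 and 806 (1.92). Ly6c1 (2.44) is also an endothelial gene, and Adgre1 (1.46) encodes the macrophage antigen F4/80. The lower members are typical of tissue and tumor macrophages. Spp1, osteopontin, had 5877 and 558 (-3.40), beside 270 and 258 without tumor. The complement genes C1qa (-1.27), C1qb (-1.11) and C1qc (-1.26) lay close together, and Cd163 (-1.68) and Gpnmb (-1.08) were lower too. Cd163 is among the members that reached the filter through the tumor libraries. The 15 members that averaged at least 100 without tumor had a median of -0.26. The general markers Csf1r (0.45, or below 0 under library totals) and Cd68 (-0.03) were inside the limit, as was Cx3cr1 with 298 and 201 (-0.565). All 12 members past the limit were above both tumor-free libraries in E(+)T(+).

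**Figure D3:**
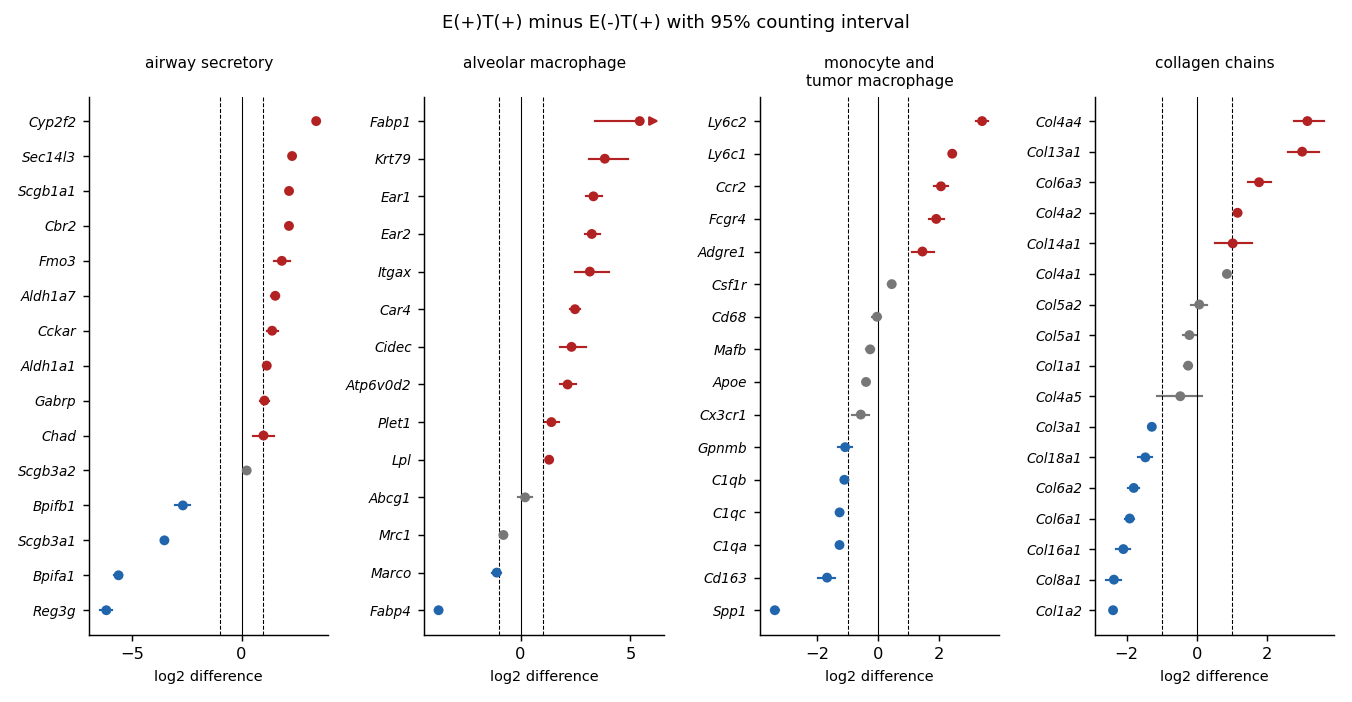
Log2 difference, E(+)T(+) minus E(-)T(+), with the 95% exact counting interval for members of 4 lists whose members lay on both sides; red, 2-fold or more higher, blue, 2-fold or more lower, gray, inside the limit, and an arrow marks an interval with no upper end (Fabp1, 0 reads in E(-)T(+)). Reg3g and Bpifa1, Fabp4, Spp1, and Col1a2 are the lowest members of their lists.

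Genes of antigen presentation to CD4 T cells were higher as a set. All 6 MHC class II genes at the filter were past the limit (median 3.33). H2-Aa had 467 normalized counts in E(-)T(+) and 5311 in E(+)T(+), beside 9108 and 11074 without tumor (3.50), and the invariant chain Cd74 had 290 and 2463 (3.08). Of 11 MHC class I genes only Psmb10, a proteasome subunit, was higher (1.08). The class I chains H2-D1 (-0.39) and H2-K1 (-0.45) and B2m (0.46) were inside the limit, and 2 members were lower, the nonclassical chain H2-M3 (-1.29) and the peptide transporter Tap2 with 403 and 62.1 (-2.68), while its partner Tap1 had 397 and 568 (0.52). Class II genes stayed below the tumor-free level in E(+)T(+) in 5 of 6 cases.

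Of 24 interferon-stimulated genes at the filter, 11 were higher and none lower (median 0.96, but 1.04 at a filter of 4 and 2.97 at a filter of 500). Rsad2, an antiviral enzyme, had 163 and 2209 normalized counts (3.75), beside 479 and 661 without tumor. The interferon gamma-induced GTPases Iigp1 (3.18) and Igtp (2.97) followed, and Cxcl9, a chemokine of the same program, was under the filter with 8 and 227 reads. The classic genes Isg15 (0.88), Irf7 (0.90) and Ifit1 (0.72) were inside the limit, so that the list was uneven. Of 16 chemokines at the filter 9 were higher and none lower (median 1.25, or 0.65 under library totals). Some of the 9, such as Pf4 of the platelet list, are also counted in other lists. The 13 chemokines of the list that averaged at least 100 without tumor had a median of 1.28. Cxcl2, given next, is among those that reached the filter through the tumor libraries. Cxcl2, which attracts neutrophils, had 77.8 and 784 normalized counts (3.31), the lymphoid chemokine Ccl21a 28.6 and 222 (2.92), and Cxcl12, which retains marrow cells, 505 and 1536 (1.6). The monocyte chemokine Ccl2 was under the filter with 240 and 104 reads (-1.11). Among 10 acute phase genes 8 were higher (median 1.57, or 0.96 under library totals). Hp, haptoglobin, which binds free hemoglobin, had 1253 and 9325 normalized counts (2.90), and the iron-binding Lcn2 had 873 and 4044 (2.21). Both genes are also counted in the neutrophil granule lists. Saa3, a serum amyloid protein, had 8877 and 5598 (-0.67), beside 73.0 and 183 without tumor.

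Genes of the alveolar epithelium were higher. Of 20 type 2 cell genes 17 were higher and none lower (median 2.15). Sftpc, the gene used for the identity check, had 116987 and 141162 normalized counts without tumor, so that the E(+)T(+) level of 81470 lay below both. Lamp3, of the lamellar bodies that store surfactant, had 148 and 1713 normalized counts (3.52), beside 3097 and 4039, and Sftpa1 5744 and 35511 (2.63), beside 34468 and 41475. The smallest differences were those of the transcription factors Etv5 (0.39) and Nkx2-1 (0.34), the latter with 37 and 44 reads. Of 17 type 1 cell genes 14 were higher and 1 lower (median 1.92). Ager, the receptor for glycation products that marks type 1 cells, had 3776 and 21012 normalized counts (2.48), beside 25337 and 40257. Rtkn2 had 110 and 778 (2.81) and the junction gene Cldn18 1213 and 6566 (2.44). Akap5, an anchoring protein, was the exception, with 25833 in E(-)T(+) and 4478 in E(+)T(+) (-2.53), beside 4420 and 5804. In 14 of 20 type 2 genes and 10 of 17 type 1 genes the E(+)T(+) level lay below both tumor-free libraries, against 43% of all rows.

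Airway secretory genes lay in opposite directions, with 10 of 15 higher and 4 lower (median 1.15, or 0.54 under library totals). Several products of club cells were among the higher members. Scgb1a1, club cell secretory protein, had 117068 normalized counts in E(-)T(+) and 526837 in E(+)T(+), beside 428518 and 520665 without tumor (2.17), and Cyp2f2, their main cytochrome, had 2363 and 25109, beside 31042 and 32048 (3.41). In E(+)T(+) Scgb1a1 lay just above the tumor-free libraries and Cyp2f2 below them. The defense and mucous products were lower. Besides Reg3g and Bpifa1, these were Scgb3a1 with 25995 and 2265 normalized counts, beside 4553 and 3450 (-3.52), and Bpifb1 with 627 and 97.2 (-2.68). The mucin Muc5b, under the filter, had 151 and 29 reads, and Scgb3a2 differed by 0.24. Of 16 motile cilia genes 14 were higher and none lower (median 1.67). Tppp3, a microtubule protein, had 316 and 2527 (3.0), and the master factor Foxj1 187 and 277 (0.56). Enzymes of xenobiotic metabolism, many of them made in club cells, were higher in 14 of 18 cases (median 1.92), led by the glutathione transferase Gstt1 with 71.3 and 832 (3.53), whereas Adh7, an alcohol dehydrogenase of surface epithelia, had 544 and 93.6 (-2.53).

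Of 7 keratins at the filter 6 were higher and 1 lower (median 2.5), and Krt79 among the higher is also in the alveolar macrophage list. Under the filter, Krt15 had 188 and 28 reads (-2.61, interval -3.28 to -2.08) and Krt5 18 and 1. Krt80 had 0 and 29 reads, and the rest under the filter had few or none. The simple epithelial keratins Krt8 (2.54), Krt18 (2.14), Krt19 (2.5) and Krt7 (2.22) were higher, as were Krt23 (2.99) and Krt79 (3.83), and in E(+)T(+) the simple epithelial ones stood above both tumor-free libraries, Krt8 at 2229 normalized counts beside 841 and 976. Krt20, a keratin of intestinal epithelium, was lower, with 2954 and 557 normalized counts (-2.41), and with 0 and 42.2 without tumor it reached the filter through the tumor libraries.

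The vascular lists were among the most uniform. Of 23 pan-endothelial genes at the filter 21 were higher and none lower, with a median of 2.77 and a range of 0.89 to 3.42. Pecam1, the adhesion molecule CD31, had 956 normalized counts in E(-)T(+) and 7454 in E(+)T(+), beside 6333 and 7961 without tumor (2.96). Tek, the angiopoietin receptor, had 81.1 and 878 (3.42), and Calcrl, which with Ramp2 forms the adrenomedullin receptor, had 462 and 4016 (3.12), beside 12034 and 11568. Nos3 (0.97) and Ecscr (0.89) were inside the limit. All 13 genes of lung capillary subtypes were higher (median 2.47), with Hpgd, which degrades prostaglandins, at 93.2 and 1029 (3.45) and Ednrb, of the aerocyte type, at 97.6 and 614 (2.64). Lyve1, of lymphatic endothelium, had 3077 and 11803 (1.94), above the 3909 and 5732 without tumor. In E(-)T(+) each of the 23 pan-endothelial genes was the lowest of the 4 libraries.

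Genes of vessel sprouting did not share this uniformity, with 9 of 17 higher and 4 lower (median 1.17, or 0.56 under library totals). Plvap, of fenestrated capillaries, had 431 and 2964 normalized counts (2.78), the Notch ligand Dll4 49.4 and 240 (2.26) and Vegfa, the main endothelial growth factor, 674 and 2182 (1.69). The tip cell gene Esm1 was lower, with 1615 and 263, beside 172 and 165 without tumor (-2.61), as were the basement membrane proteoglycan Hspg2 with 1798 and 429 (-2.06), Apln with 160 and 60.9 (-1.38) and Unc5b with 982 and 380 (-1.37). Esm1, Hspg2 and Unc5b were above the tumor-free level in E(-)T(+), while Plvap, Dll4, Vegfa and Apln were below it.

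Stromal lists were mostly higher. Of 15 smooth muscle and pericyte genes 14 were higher (median 2.34), among them Acta2, smooth muscle actin, with 354 and 1823 normalized counts (2.36), beside 1938 and 2188, and Gucy1b3, of the nitric oxide receptor, with 82.3 and 932 (3.48). Pdgfrb (0.73) was inside the limit. Under the filter, Cspg4 had 38 and 40 reads and Rgs5 23 and 24, while Synpo2 had 17 and 35 and Actg2 18 and 77. The 17 members that averaged at least 100 without tumor had a median of 2.02. Of 20 lung fibroblast genes 13 were higher and none lower (median 1.85). Inmt, an amine methyltransferase of alveolar fibroblasts, had 1379 and 20780 (3.91), beside 32744 and 32093, and the mesenchymal factor Tcf21 24.2 and 278 (3.47). The general fibroblast genes Pdgfra (-0.03) and Dcn (-0.68) lay inside the limit, and Dcn had its highest level, 9013, in E(-)T(+).

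Collagen chains lay on both sides, with 5 of 17 higher and 7 lower (median -0.24, but 0.09 at a filter of 4 and -1.28 at a filter of 500). Type IV chains of basement membrane ranged widely, with Col4a4 at 58.1 and 530 normalized counts (3.17), Col4a2 at 1877 and 4228 (1.17), Col4a1 at 2540 and 4630 (0.87) and Col4a5 at -0.47. Col13a1, a membrane collagen of lung fibroblasts, had 53.8 and 442 (3.02). The fibrillar chain Col3a1, at 6539 and 2692 (-1.28), and Col8a1, at 1207 and 234 (-2.36), were lower, as was Col18a1 (-1.47). The chains of type VI collagen were split, with Col6a1 at 2355 and 625 (-1.91) and Col6a2 at -1.80 lower but Col6a3 at 113 and 392 (1.78) higher. The chains of type I collagen, which assemble with each other, differed by unlike amounts. Col1a2 had 17953 normalized counts in E(-)T(+) and 3431 in E(+)T(+), beside 2622 and 2538 without tumor (-2.39, interval -2.44 to -2.33), whereas Col1a1 had 1713 and 1448, beside 663 and 640 (-0.24, interval -0.35 to -0.13).

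Genes of matrix remodeling had 10 of 23 members higher and 7 lower (median 0.78, but -0.04 at a filter of 4). The 21 members that averaged at least 100 without tumor had a median of 0.94. Thbs2 and Timp1, given next, are the members that reached the filter through the tumor libraries. Thbs2, a matricellular protein, was the lowest, with 2087 normalized counts in E(-)T(+) and 156 in E(+)T(+), beside 12.6 and 50.4 (-3.74), while its relative Thbs1 was higher, with 230 and 1309 (2.5). The membrane protease Mmp14 had 2177 and 579 (-1.91), and the metalloproteinase inhibitors Timp2 (-1.30) and Timp1 (-1.25) were lower too. Timp3, of the same inhibitor family, was higher, with 10397 and 26800 (1.37). Of muscle genes, no skeletal muscle gene reached the filter. Among 8 heart muscle genes, which in lung mark the sleeves of the pulmonary veins, 5 were higher (median 1.36, or 0.76 under library totals). Actc1 led them with 56.0 and 220 (1.96).

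**Figure D4:**
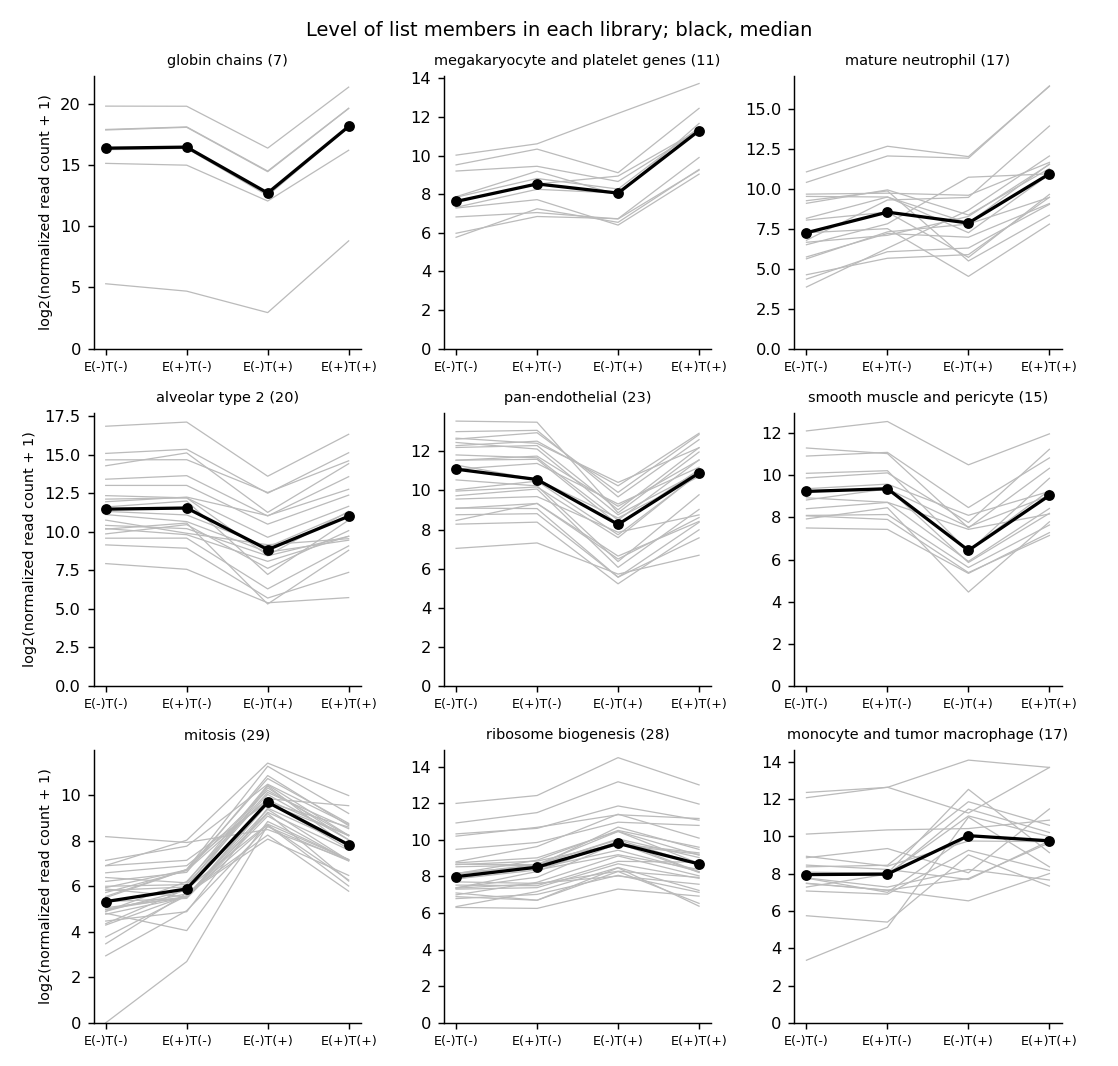
Level of list members, log2(normalized read count + 1), in each of the 4 lung libraries for 9 lists; gray lines are genes and black points the median of the list. Globin, platelet and neutrophil medians are highest in E(+)T(+), type 2, endothelial and smooth muscle medians are lowest in E(-)T(+), and mitosis and ribosome biogenesis medians are highest in E(-)T(+).

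Genes of cell division were lower in the exercised tumor lung. Of 29 mitosis genes at the filter 28 were past the limit and all 29 lay below 0 (median -1.96). Only 5 of them averaged at least 100 over the tumor-free libraries (median -1.43), and the other members reached the filter through the tumor libraries, so the count is not set against the share of all rows. Top2a, which untangles chromosomes, had 2707 normalized counts in E(-)T(+) and 1007 in E(+)T(+), beside 119 and 258 without tumor (-1.43). Cdk1, the kinase that starts mitosis, had 1692 and 431, beside 44.1 and 105 (-1.97), and its partner cyclin Ccnb1 687 and 225, beside 21.1 and 28.4 (-1.61). Anln, of the contractile ring, showed the largest difference, with 583 and 73.7 (-2.96). Mki67, the common proliferation marker, was the exception, with 914 and 740, beside 51.7 and 102 (-0.30, interval -0.46 to -0.15). In 28 of the 29 genes the E(+)T(+) level stayed above both tumor-free libraries, Kif20a being the other, at 142 beside 288 and 241.

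Of 25 DNA replication genes 18 were lower and none higher (median -1.23), and 12 averaged at least 100 without tumor (median -1.12). Lig1, the ligase of the lagging strand, had 3025 and 890 normalized counts (-1.76), and the helicase subunits of the MCM2 to MCM7 ring ranged from Mcm3 (-1.01) through Mcm5 (-1.07), Mcm7 (-1.25), Mcm2 (-1.41) and Mcm4 (-1.83) to Mcm6 (-2.49). Gins4 (-0.06) differed least. Among 9 histone rows at the filter Hist2h2aa1 was higher (1.24) and H2afx lower (-1.02). Histone transcripts of the replication type largely lack a poly(A) tail, which this 3' method requires.

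Promoters of 3 mitosis genes are shown because the members of this list were lower together and because promoters of such genes are known for CCAAT boxes and for the cell cycle element TTTGAA. The 250 bases before the RefSeq start (GRCm38.p6) are printed 5′ to 3′ on the gene's strand, with CCAAT and TTTGAA on either strand in capitals (ATTGG and TTCAAA on the other strand). They lie at chr10:69352913-69353162 on the minus strand for Cdk1, chr4:118437344-118437593 on the minus strand for Cdc20 and chr13:100786487-100786736 on the minus strand for Ccnb1.
Cdk1: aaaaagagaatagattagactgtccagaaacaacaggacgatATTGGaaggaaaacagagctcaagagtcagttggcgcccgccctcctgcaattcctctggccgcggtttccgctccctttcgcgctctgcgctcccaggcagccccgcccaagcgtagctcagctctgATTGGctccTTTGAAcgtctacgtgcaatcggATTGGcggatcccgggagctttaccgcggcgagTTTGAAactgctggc
Cdc20: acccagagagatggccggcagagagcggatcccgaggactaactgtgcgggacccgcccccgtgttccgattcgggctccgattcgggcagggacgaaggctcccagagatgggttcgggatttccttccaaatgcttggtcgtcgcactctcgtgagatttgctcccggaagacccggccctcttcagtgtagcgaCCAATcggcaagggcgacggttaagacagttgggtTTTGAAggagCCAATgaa
Ccnb1: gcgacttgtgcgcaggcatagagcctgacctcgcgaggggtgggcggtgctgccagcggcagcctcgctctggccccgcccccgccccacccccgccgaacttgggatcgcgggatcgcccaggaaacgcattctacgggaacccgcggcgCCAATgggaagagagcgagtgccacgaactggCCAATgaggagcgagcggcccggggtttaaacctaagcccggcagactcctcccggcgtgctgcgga
CCAAT was found in 20 of 24 mitosis promoters in the table (83.3%) and in 13 of 20 DNA replication promoters (65%), against 35.9% of the 7151 promoters of rows at the filter and 34.5% of all 27025. It was also in 10 of the 15 promoters of the 4 red cell lists (66.7%). TTTGAA was found in 7 of the 24 mitosis promoters (29.2%) and in 2 of the 20 DNA replication promoters (10%), against 10% of the 7151 and 16.3% of all 27025. In the windows printed, CCAAT pentamers start 80 and 48 bases before the start of Cdk1, among others, 53 and 8 bases before that of Cdc20, and 99 and 67 bases before that of Ccnb1. No match says only that the letters are not in this window.

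Of 28 ribosome biogenesis genes 15 were lower and none higher (median -1.05). Ncl, nucleolin, had 23057 normalized counts in E(-)T(+) and 8208 in E(+)T(+), beside 4072 and 5491 without tumor (-1.49), and Nob1, which finishes the small subunit, 354 and 81.9 (-2.10). The 47 cytosolic ribosomal protein genes all lay below 0, but 10 passed the limit (median -0.68, or -1.29 under library totals). Rpl4 differed most, with 23314 and 7885 (-1.56), and Rpl7 and Rps15 least (-0.18 each). Amino acid stress response genes had 5 of 12 lower and none higher (median -0.47), but the 8 members that averaged at least 100 without tumor had a median of -0.02, and a filter of 500 gave 0.2. Lower members were Slc7a5, the large neutral amino acid transporter, at 681 and 125 (-2.44) and the serine synthesis genes Phgdh at 332 and 102 (-1.70) and Psat1 at 1462 and 471 (-1.63).

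Of 15 glycolysis genes 5 were lower and 1 higher (median -0.86, or -1.47 under library totals). Tpi1 had 2777 and 713 normalized counts, beside 599 and 588 (-1.96), Pgk1 2029 and 569 (-1.83), and Ldha, which makes lactate, 6046 and 2265 (-1.42). The lactate exporter Slc16a3 was higher, with 144 and 560 (1.96). Hypoxia-induced genes fell on both sides, with 5 of 15 higher and 5 lower. Bnip3, of mitochondrial turnover, had 3691 and 1119 (-1.72), Pdk1 545 and 193 (-1.49), and the carbonic anhydrase Car9, under the filter, 183 and 6 reads, whereas Vegfa (1.69) and Adm (1.21) were higher. Oxidative phosphorylation genes were flat, since 47 of 49 lay inside the limit (median -0.23). The exceptions were subunits of the same complex, succinate dehydrogenase, Sdhc with 1249 and 552 (-1.18) and Sdhd with 469 and 13 normalized counts, beside 93.4 and 62.4 (-5.07, interval -6.20 to -4.34), while the other subunits Sdha (-0.28) and Sdhb (-0.04) were inside the limit. Cholesterol synthesis genes were mostly inside it as well, with 2 of 19 higher and 2 lower (median -0.38).

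Signaling and stress lists were more varied. Of 19 immediate early genes 15 were higher and none lower (median 1.76). Nr4a3, an orphan nuclear receptor, had 22 and 288 normalized counts (3.65), Atf3 60.4 and 733 (3.58) and Junb 1241 and 6013 (2.28). Egr1 (0.57, or below 0 under library totals) and Klf6 (-0.06) were inside the limit. In 16 of the 19 genes E(+)T(+) was the highest of the 4 libraries, against 1973 of all 9396 rows. Targets of the ERK pathway had 3 of 14 members higher and 6 lower (median -0.53, or -1.14 under library totals). Among the 9 members that averaged at least 100 without tumor the median was 0.04, so the direction of this list rests on members that reached the filter through the tumor libraries. The feedback inhibitors Spry4 (1.37) and Spry2 (1.31) were higher, and transcription, chromatin and cell cycle genes downstream of the pathway were lower, Hmga2 with 5292 and 363 normalized counts (-3.86), Etv4 with 746 and 102 (-2.86), Fosl1 with 1117 and 193 (-2.53) and the cyclin Ccnd1 with 16926 and 3235 (-2.39). Hmga2, Fosl1 and Etv4 were at 15.2, 1.6 and 0 in E(-)T(-), and Myc, under the filter, had 209 and 10 reads.

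Glucocorticoid targets had 5 of 13 higher and 2 lower (median 0.25, or -0.36 under library totals). Cdkn1a, the cell cycle inhibitor p21, had 3750 and 18832 normalized counts, beside 1809 and 5017 without tumor (2.33), and Sgk1 1524 and 4560 (1.58). Fkbp5, which tempers the receptor, was lower, with 2987 and 732 (-2.03). Metallothioneins, which bind zinc and also answer glucocorticoids, were high in both tumor libraries. Mt2 had 122294 in E(-)T(+) and 23591 in E(+)T(+), beside 576 and 2378 (-2.37), and Mt1 had 59227 and 30235 (-0.97). Clock genes had 4 of 14 higher and 4 lower (median 0.28, or -0.32 under library totals), with Nfil3 (1.99), Cry2 (1.92), Per1 (1.32) and Per2 (1.31) higher and Bhlhe41 (-2.02), Dbp (-1.92), Hlf (-1.66) and Arntl (-1.45) lower. The time of day at which each lung was taken is not in the labels.

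Protein folding genes were not uniform either. Among 17 heat shock genes, most of them cytosolic, 3 were higher, Hspb1 with 1277 and 5166 normalized counts (2.02), Hspa1a (1.56, on 21 and 60 reads) and Dnajb1 (1.01), and 4 were lower, Hspa4l (-1.68), Hsp90ab1 with 40876 and 13930 (-1.55), the mitochondrial chaperonin Hspd1 (-1.43) and Hspa8 (-1.02). The highest level of Hspb1, 21056, was in E(+)T(-). All 20 genes of the ER chaperone list were inside the limit (median 0.07, or -0.53 under library totals).

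Of a list of 15 genes that the study named, chosen mainly from those it named for lung, 4 were at the filter. Fos, an immediate early factor, had 151 and 469 normalized counts (1.63, interval 1.35 to 1.93), and Timp1, already given, was lower. Col1a1 (-0.24) and the apoptosis regulator Cflar (-0.13, interval -0.28 to 0.02) were inside the limit. The rest of this list was under the filter, led by Il15 with 108 and 50 reads, and included Trim63 with 7 and 5 reads and Six2 with 9 and 0, which this depth does not resolve. Genes it named for muscle that are not on this list and were at the filter include Osr2 and Col3a1, given above, Col5a2 (0.08, interval -0.15 to 0.30) and Tnnc1 (0.35, interval -0.09 to 0.80).

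**Figure D5:**
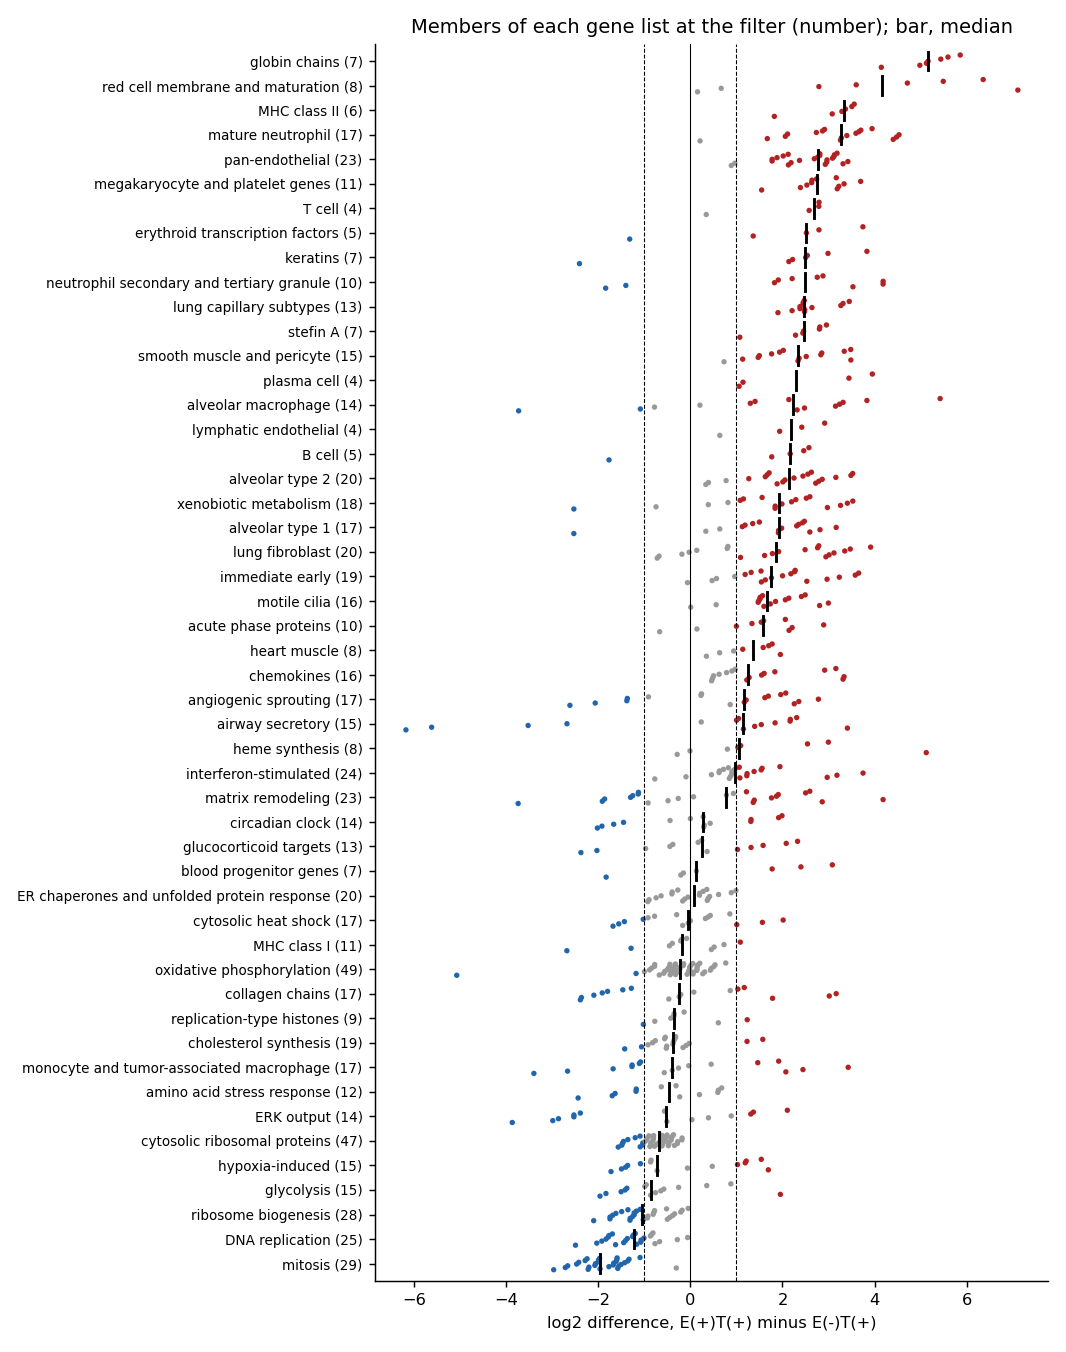
Log2 difference, E(+)T(+) minus E(-)T(+), of each member at the filter (points) and the median (black bar) for lists with 4 or more members at the filter, whose number is in brackets; dashed lines mark 2-fold, red and blue points are past it. Lists of blood, vessel, stroma and lung epithelium lie to the right, lists of cell division and ribosome assembly to the left, and several lists hold members far out on both sides.

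Many lists, though not all, differed in this pair of libraries at once. From E(-)T(+) to E(+)T(+) the summed level of the platelet list went from 723.4 to 2311 CPM, that of the mature neutrophil list from 1309 to 14010, that of the type 2 list from 3496 to 12980 and that of the pan-endothelial list from 894.1 to 3599, while that of the mitosis list went from 2902 to 546.2. These sums are scaled by library totals, so that their log2 ratios lie 0.61 below the deposited scaling used for the differences above. Blood content, the share of tumor tissue in the piece of lung taken and a change of expression within cells cannot be told apart with 1 library per group, and their part in any single gene's difference was not tested.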

How the data were processed

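Lung RNA of 4 groups, 1 library each, was sequenced as QuantSeq 3' libraries, and per the labels' processing notes reads were aligned with Bowtie2 to mm10 and counted with bedtools (versions, annotation and strand setting not given in the sources used here). The authors deposited log2 values with 3 decimals, log2(normalized read count + 1), after edgeR normalization. Whole reads were recovered from these values by inverting that normalization in Python 3.11.15 (numpy 2.4.6, pandas 2.3.3, scipy 1.17.1), and for 100% of 23282 rows the recomputed values lay within 0.001 of the deposited log2 values, while 93.1% of values were resolved to 1 read. Members were rows whose normalized count averaged 100 or more across libraries. The result is the difference of deposited log2 values, joined by row order, and 2-fold or more counts as past the limit. Intervals are 95% exact (Clopper-Pearson) intervals of the read ratio, Wilson intervals are used for shares of reads, and a floor of 3 reads per library stands in for 0. Reads without molecular identifiers are not independent molecules, so intervals and floors cover counting error only. With 1 library per group no test was run. The comparison, its members and the 58 gene lists were chosen with earlier results of these data known. Named are the 12 rows with the largest difference in each direction and, of each list, the most abundant member, the extremes and members whose role is set out, beside the count over the list. Some genes that this rule names are not reported here. Promoters were the 250 bases before the start in RefSeq (GRCm38.p6), matched by symbol for 7151 rows at the filter. The alternatives were other scalings, another pseudocount, other filters and an 8-fold limit. Scripts were tested on simulated data, and figures were drawn with matplotlib 3.10.9.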

Additional observations from a re-analysis of the deposited data

Results flagged for a closer look

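In 5 of the 12 rows with the largest negative differences the exercise difference was 2-fold or more in the opposite direction without tumor. The difference between these effects was not tested. Over all 9396 rows, 158 (1.68%) were 2-fold or more higher in E(+)T(-) than in E(-)T(-). The 5 rows were picked by their difference with tumor, and none averaged the filter level over the tumor-free libraries. Each reached the filter through the tumor libraries, so the count of 5 is not set against this share. For Crabp1 the log2 difference was -4.68 with tumor, on 10478 and 382 reads, while without tumor it had 0 and 141 reads, at least 50.8-fold higher against a floor of 3 reads per library. Osr2 had -4.53 with tumor, on 1673 and 67 reads, and 0 and 29 reads without, at least 10.45-fold higher. Nefm had -5.22 with tumor, on 517 and 12 reads, and 3 and 21 reads without. Chrna1 had -4.51 and 1.41, on 755 and 30 reads against 16 and 41, and Gp2 had -4.56 and 1.11, on 503 and 19 reads against 10 and 21. Each of these genes was more abundant in E(-)T(+) than in the other 3 libraries. Their reads in E(+)T(-) came to 1.35% (Crabp1), 1.73% (Osr2), 4.06% (Nefm), 4.17% (Gp2) and 5.43% (Chrna1) of those in E(-)T(+), and the part of reads carried over between libraries in the tumor-free differences was not tested.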

How the results depend on the processing

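Of 9396 rows, 3171 were past 2-fold, 1829 higher and 1342 lower. Library totals alone gave 1157 higher and 3321 lower, with the median of all rows moved by -0.61. A filter of at least 4 gave 6371 of 15164 (3685 and 2686), a filter of at least 500 gave 1181 of 3848 (737 and 444), and an 8-fold limit gave 251 (190 and 61). The share past 2-fold was 42% at the filter of 4 and 30.7% at that of 500, against 33.7%, and the cause was not tested. Library totals without the hemoglobin genes (1728 and 1513), median-of-ratios size factors (1806 and 1382), a pseudocount of 10 (1776 and 1266) and a filter on the tumor-free libraries alone (1912 and 1107 of 9190) kept the counts within 1.5 times. Of 57 list medians 4 changed sign under library totals alone, those of blood progenitors, ER chaperones, the circadian clock and glucocorticoid targets, as did 69 of 776 named genes. The side of the 2-fold limit changed under that scaling for 13 list medians and 180 named genes. The filters of 4 and 500 each changed the sign of 5 list medians and the side of the limit of 6, among them matrix remodeling (-0.04 and 1.29), collagen chains (0.09 and -1.28), interferon-stimulated genes (1.04 and 2.97 against 0.96) and, at 500, the circadian clock (1.32 against 0.28). The dendritic cell median was -0.22 at the filter of at least 500, where 2 genes remained, against 1.39. No paired analysis was possible because each group had 1 library, and leaving out a replicate was not possible for the same reason. Depth limits the rows with few reads in either tumor library, such as Fam162b (1 and 87 reads, interval 4.02 to 11.86) and Cr2 (17 and 4 reads, interval -4.02 to -0.38).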

Other observations

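Blood progenitor genes had 3 of 7 members at the filter higher and 1 lower (median log2 difference 0.13, but -0.47 under library totals, 1.78 at a filter of 4 and -0.99 at a filter of 500). The 8 members that averaged at least 100 without tumor had a median of 0.95. Of 14 dendritic cell genes 3 reached the filter, 2 higher and 1 lower. Of the 190 rows that were 8-fold or more higher, 114 belonged to none of the lists, and of the 61 that were 8-fold or more lower, 53 did not, so that the lists describe a smaller part of the lower rows.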
